A study of Mus musculus with 6 samples.

Results

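The immediate early genes Ier2, Ier3, Ier5, Fos, Fosb, Jun, Junb, Egr1, Dusp1 and Klf6 were followed across 6 arrays of differentiating mouse embryonic stem (ES) cells. These 10 genes, of 19057 genes with a symbol on the array, are named members of the early response to growth factors and stress. They were selected on their intensity in these same arrays, both in the contrast of shAtad2 with shCtrl and in the third replicates against the first and second, so the values in both contrasts are a description, with no p-value given and nothing read from a call. Every probe carrying one of the 10 symbols was taken, which gave 12 probes, with a pair each for Junb and Klf6. The knockdown cells stably expressed a short hairpin RNA (shRNA) against Atad2 from a lentiviral vector (shAtad2), and the control cells expressed a control shRNA from the same vector (shCtrl). Both groups were puromycin-selected pools of the 46C-Atad2-tagged ES line, whose own Atad2 gene carries a tag, and both had spent 3 days without leukaemia inhibitory factor (LIF), when mouse ES cells leave self-renewal and form spheroids. The control sequence is described both as non-targeting and as inactive, and the 3 arrays of each group came from 1 pool of infected cells as far as the sources say. Total RNA was read on Illumina MouseWG-6 v2.0 beadchips, and nothing states that replicates were separate cultures, so any p-value measures only the spread between these samples.

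Immediate early genes are transcribed within minutes of a signal, without new protein synthesis, because their promoters are already open and hold bound factors that kinases of the ERK, p38 and JNK pathways switch on. Their transcripts are short-lived, so the level at harvest follows recent signalling, handling and serum contact as well as cell state. Fos, Fosb, Jun and Junb encode subunits of the AP-1 transcription factor, Egr1 and Klf6 are zinc-finger transcription factors, and Dusp1 is a phosphatase that switches MAP kinases off again. In ES cells ERK signalling accompanies the exit from pluripotency, and Egr1 is a familiar target of fibroblast growth factor signalling there.

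The arrays were alike in brightness, with a median unnormalized intensity of 130.0 to 138.9 and with 39.3% to 40.9% of the 45281 probes above background at a detection p-value under 0.05. All values below are log2 intensity after background correction and quantile normalization, and a level was never compared between probes. Atad2 measured 5.69, 5.64 and 5.41 on the shAtad2 arrays and 6.28, 6.48 and 6.39 on the shCtrl arrays, so the groups did not overlap in the direction that the labels give. The difference of -0.80 (SE 0.14), or 1.74-fold lower, did not pass over all genes (limma, adjusted p = 0.310). A second Atad2 probe was above background on 0 arrays and gives no level to compare. All 8 pluripotency markers listed for ES cells, Pou5f1, Sox2 and Nanog among them, were above background. The third replicate of each group stood apart from the first and second, at 26.1 and 26.8 on the first principal component against -15.4 to -11.9 for the other 4 arrays, and this component held 48% of the variance.

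Of the 10 members, 7 were above background on all 6 arrays and were kept in the fit across all genes (Ier3, Fos, Jun, Junb, Egr1, Dusp1 and Klf6), and 3 were too dim (Ier2, Ier5 and Fosb). That fit called 0 of the 7 between the groups, which is only a count here, and called 0% of all 10072 genes tested, with 798 genes at an unadjusted p under 0.05, 415 higher and 383 lower. Relative to shCtrl, 5 of the 7 had a lower mean in shAtad2 (Ier3, Jun, Junb, Dusp1 and Klf6) and 2 a higher one (Fos and Egr1). The median difference over the 7 was -0.29, beside 0.00 over all genes tested, and it was -0.057 without the third shCtrl replicate.

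**Figure D1:**
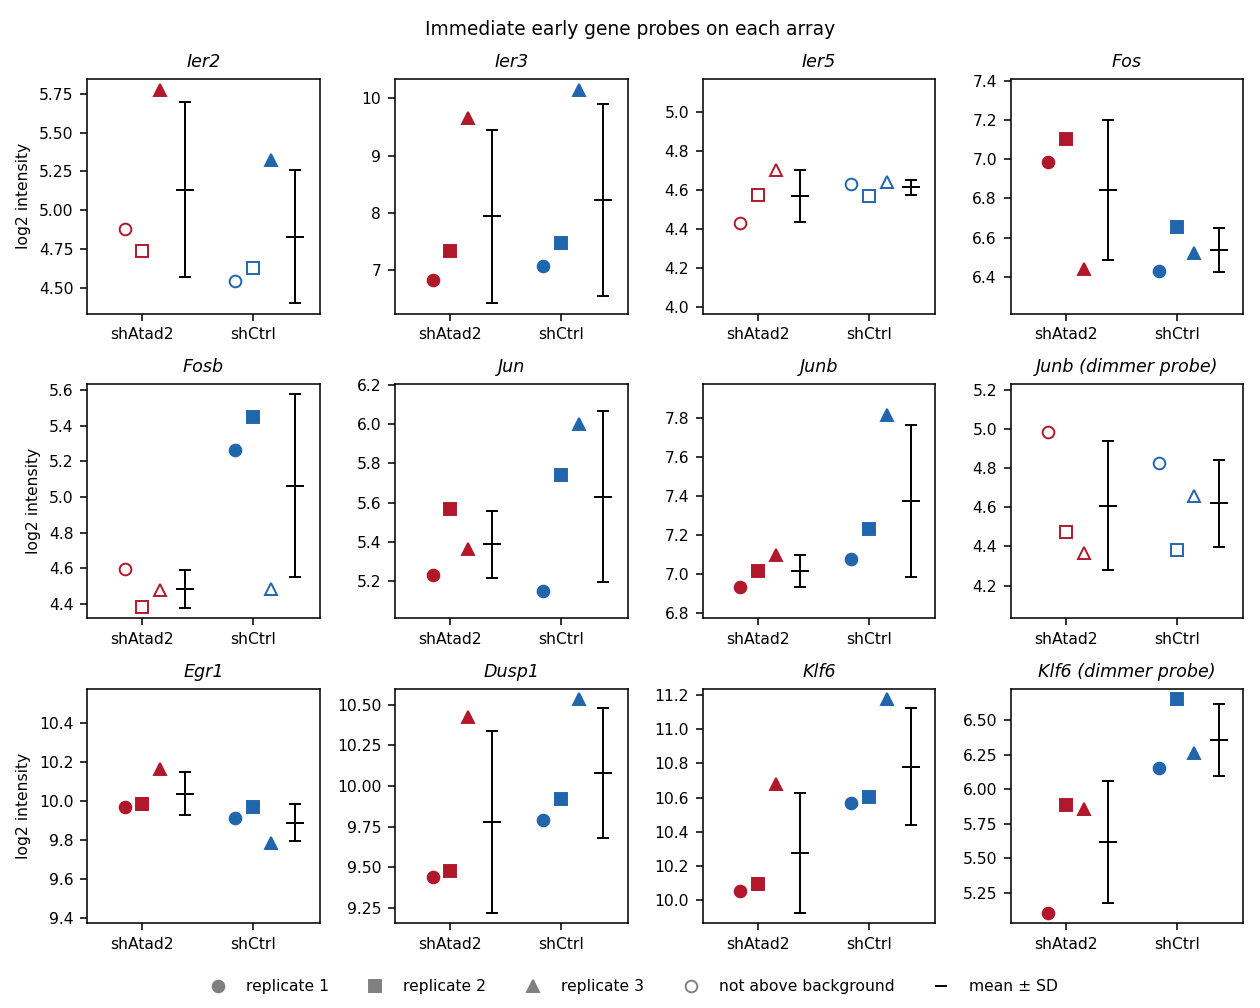
Log2 intensity (vertical axes, each with its own range) of the 12 probes of the immediate early genes on the shAtad2 arrays (red) and the shCtrl arrays (blue), with the mean ± SD of 3 arrays beside each group. Open symbols mark arrays on which the probe was not above background. For Ier3, Dusp1 and the brighter Klf6 probe, both triangles (replicate 3) lie above the other 4 arrays.

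The regulatory sequence before the start site is shown for Ier3, Dusp1, Klf6 and Fos. The first 3 were high together on both replicate 3 arrays, Klf6 by its brighter probe only, and Fos was not. Each window is the 250 bases before the RefSeq start on GRCm38.p6, written from 5′ to 3′ along the gene, with matches to the motifs named after the sequences in capitals. They lie at chr17:35821463-35821712 on the plus strand (Ier3), chr17:26508473-26508722 on the minus strand (Dusp1), chr13:5861239-5861488 on the plus strand (Klf6) and chr12:85473640-85473889 on the plus strand (Fos).
Ier3: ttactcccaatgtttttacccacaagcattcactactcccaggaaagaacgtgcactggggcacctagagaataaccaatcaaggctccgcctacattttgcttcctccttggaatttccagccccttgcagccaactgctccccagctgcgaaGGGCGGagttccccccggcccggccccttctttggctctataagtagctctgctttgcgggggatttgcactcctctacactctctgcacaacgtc
Dusp1: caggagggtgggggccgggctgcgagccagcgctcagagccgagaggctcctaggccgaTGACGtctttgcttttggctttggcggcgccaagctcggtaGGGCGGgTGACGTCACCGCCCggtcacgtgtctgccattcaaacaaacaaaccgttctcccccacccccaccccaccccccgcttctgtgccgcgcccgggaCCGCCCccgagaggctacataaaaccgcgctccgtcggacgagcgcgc
Klf6: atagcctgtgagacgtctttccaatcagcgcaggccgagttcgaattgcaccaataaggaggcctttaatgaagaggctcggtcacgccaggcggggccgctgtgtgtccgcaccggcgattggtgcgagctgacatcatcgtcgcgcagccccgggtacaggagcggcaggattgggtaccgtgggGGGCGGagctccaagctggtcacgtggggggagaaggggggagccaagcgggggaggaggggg
Fos: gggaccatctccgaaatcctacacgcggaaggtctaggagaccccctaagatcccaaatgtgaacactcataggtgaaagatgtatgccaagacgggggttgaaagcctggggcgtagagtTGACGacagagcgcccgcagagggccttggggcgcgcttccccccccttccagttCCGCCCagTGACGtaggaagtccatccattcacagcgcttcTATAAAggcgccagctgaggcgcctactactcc

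Windows were at hand for 8 of the 10 members, all but Ier2 and Egr1, and motifs were searched on both strands. The GC box GGGCGG, which binds Sp1 and Klf factors, occurred in 7 of the 8 windows, Junb being the exception, and in 32.7% of 32851 mouse windows of the same length. The short cAMP response element TGACG, which can bind CREB and ATF proteins, occurred in Fos, Fosb, Junb and Dusp1, and in 17.8% of all windows. Its full form TGACGTCA, which contains the short one, was found in Dusp1 alone among the members, starting at base -143, and in 1.55% of all windows. Fos held the TATA box TATAAA at base -33, a motif in 12.4% of all windows. No match was found in the 8 windows for the CArG box of serum response factor (1.47% of all windows), the AP-1 site TGANTCA (6.75%), the Egr site GCGTGGGCG (0.536%) or the Ets core CCGGAA (12.0%). A match describes letters only, and neither other forms of these motifs nor enhancers farther away were searched.

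The AP-1 subunits were measured first between the groups. Junb, a subunit that dimerizes with Fos proteins, read 6.94, 7.02 and 7.10 on the shAtad2 arrays and 7.08, 7.23 and 7.81 on the shCtrl arrays. The groups overlapped, since the third shAtad2 array lay just above the first shCtrl array. Within each replicate number Junb was lower in shAtad2, by a difference of -0.14, -0.21 and -0.71, with means of 7.02 ± 0.08 and 7.37 ± 0.39 in shAtad2 and shCtrl (SD, n = 3 each) and a fitted difference of -0.36 (SE 0.20). The second Junb probe was above background on 0 of the 6 arrays, and gives no level to compare.

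Jun, the main DNA-binding partner of Fos in AP-1, measured 5.23, 5.57 and 5.36 in shAtad2 and 5.15, 5.74 and 6.002 in shCtrl. The first shCtrl array was below all 3 shAtad2 arrays, and shCtrl replicates 2 and 3 were above all 3. The pairs differed in sign, at 0.08, -0.17 and -0.64, around a fitted difference of -0.24 (SE 0.23).

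Fos ran the other way, with 6.99, 7.11 and 6.44 in shAtad2 and 6.43, 6.66 and 6.52 in shCtrl. The first and second shAtad2 arrays were above all 3 shCtrl arrays, and the third lay among them. The pair differences were 0.56, 0.45 and -0.08 and the fitted difference was 0.31 (SE 0.20), with means of 6.84 ± 0.36 in shAtad2 and 6.54 ± 0.11 in shCtrl (SD, n = 3 each). Fosb, a relative of Fos, was above background on 0 of 3 shAtad2 arrays and on 2 of 3 shCtrl arrays. Its measured values were 4.59, 4.38 and 4.48 in shAtad2 and 5.26, 5.45 and 4.48 in shCtrl, so that the first and second shCtrl arrays stood above the rest, and the third shCtrl array did not. With each dim array set at the lowest signal called above background, the shCtrl mean was at least 1.00-fold higher than that of shAtad2, which leaves no measurable fold.

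The zinc-finger genes had the largest and the smallest group difference by size among the 7. Klf6, a regulator of growth and differentiation genes, measured 10.06, 10.10 and 10.68 in shAtad2 and 10.57, 10.60 and 11.18 in shCtrl. Every shAtad2 array was below the shCtrl array of its number, by nearly the same amount each time, with pair differences of -0.51, -0.51 and -0.49 (SD 0.008). The groups nevertheless overlapped, because the third shAtad2 array was above the first and second shCtrl arrays. The means were 10.28 ± 0.35 in shAtad2 and 10.78 ± 0.34 in shCtrl (SD, n = 3 each), a fitted difference of -0.50 (SE 0.23), or 1.42-fold lower, which ranked 506 by size among the 10072 genes. The SE was 0.13 when the replicate number was fitted as a block.

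A second, dimmer Klf6 probe was above background on all 6 arrays and also lower in shAtad2. It read 5.10, 5.89 and 5.85 in shAtad2 and 6.16, 6.65 and 6.26 in shCtrl, and here the groups did not overlap. Its pair differences were -1.05, -0.77 and -0.41, with a mean of -0.74. Both probes of the gene thus had the same sign in every pair, although the second one did not share the high replicate 3 arrays of the first.

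Egr1, the zinc-finger factor that growth factor signalling induces through ERK, measured 9.97, 9.98 and 10.16 in shAtad2 and 9.91, 9.97 and 9.79 in shCtrl. All 3 shAtad2 values exceeded all 3 shCtrl values, but barely, since the lowest shAtad2 array was at 9.967 and the highest shCtrl array at 9.9665. The difference was 0.15 (SE 0.13), and with both replicate 3 arrays left out it was 0.03. Egr1 was the only one of the 7 whose groups did not overlap, 1 with all shAtad2 arrays above, where 6.94% of all genes did the same, and 0 with all shAtad2 arrays below, where 6.59% did.

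Dusp1, the phosphatase that inactivates ERK, p38 and JNK, measured 9.44, 9.48 and 10.43 in shAtad2 and 9.79, 9.92 and 10.53 in shCtrl. Each shAtad2 array was below its shCtrl counterpart, with pair differences of -0.35, -0.44 and -0.11, and the groups overlapped through the high shAtad2 replicate 3. The means were 9.78 ± 0.56 in shAtad2 and 10.08 ± 0.40 in shCtrl (SD, n = 3 each), and the fitted difference was -0.30 (SE 0.31).

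Ier3, a stress-inducible gene whose product modulates survival and ERK activity, spread the most. It read 6.83, 7.33 and 9.66 in shAtad2 and 7.07, 7.47 and 10.15 in shCtrl, so the third arrays were far above the others in both groups. Pair by pair it was slightly lower in shAtad2, at -0.24, -0.14 and -0.50. The fitted difference of -0.29 had an SE of 0.94, against 0.14 with the replicate number as a block. Its sign depended on the arrays used, being 0.26 without the first shAtad2 replicate, 0.01 without the second shAtad2 replicate and 0.67 without the third shCtrl replicate, and a lower mean was then left for 4 of the 7 genes.

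The remaining members gave little signal. Ier2, a nuclear protein of the early response, measured 4.88, 4.74 and 5.78 in shAtad2 and 4.54, 4.63 and 5.32 in shCtrl, and only the third array of each group was above background. Ier5, which is linked to heat shock factor activity, was above background on 0 of the 6 arrays, and its measured values of 4.43 to 4.70 are a bound and no level.

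**Figure D2:**
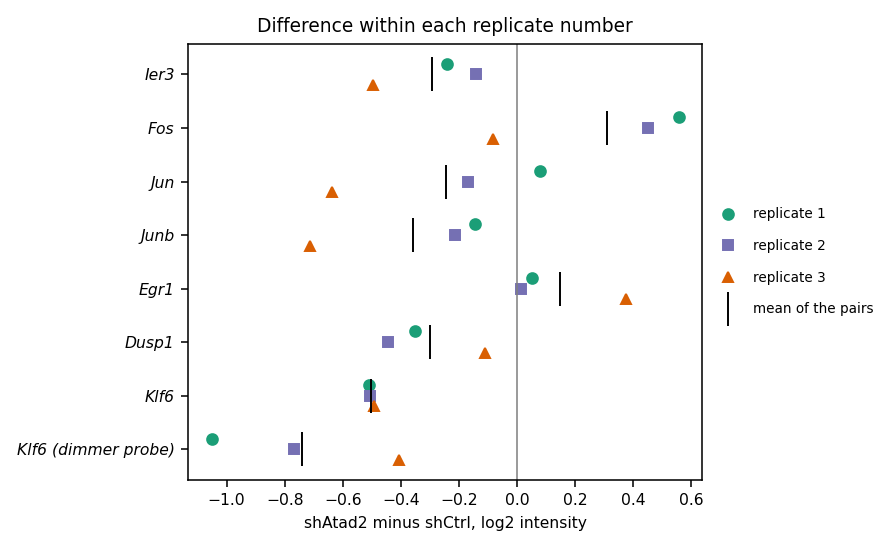
Difference in log2 intensity between the shAtad2 and the shCtrl array of the same replicate number (horizontal axis) for the 8 member probes kept, with the mean of the 3 pairs as a vertical bar. The 3 points of the brighter Klf6 probe coincide near -0.50, whereas those of Fos and Jun fall on both sides of 0.

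Read by pairs, 4 of the 7 genes (Ier3, Junb, Dusp1 and Klf6) were lower in shAtad2 in all 3 pairs, where 17.4% of all genes tested were, and 1 gene (Egr1) was higher in all 3 pairs, where 17.2% were. Fos and Jun were mixed. These pairs are the ones by which the members were chosen, so nothing is read from the excess. Deviations from the group mean correlated over genes at 0.298, 0.287 and 0.578 between arrays with the same number, each over the minimum of 0.1 asked of a pairing, although the first and second numbers were matched as well crosswise (0.299 and 0.342). With the replicate number as a block, limma called 10 of the 10072 genes (2 higher, 8 lower), and the members among them numbered 0.

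Ier3, Dusp1 and the brighter Klf6 probe differed by more on the third replicates than between the groups. Junb, Jun and Fos did so by little. They were at 0.39, 0.26 and -0.32 on the third replicates over both groups, and at -0.36, -0.24 and 0.31 between the groups. Egr1 did not, at 0.02 and 0.15. Ier3 was higher on the third array by 2.58 in shAtad2 and by 2.88 in shCtrl, which put its mean at 9.90 on the third replicates and 7.17 on the first and second, 6.63-fold apart. It ranked 1 of the 10072 genes in how far the third replicates were above the others. In unnormalized intensity, the same probe read 949 on the third shAtad2 array, against 224 and 259 on the first and second, and 1183 on the third shCtrl array, against 256 and 284.

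Dusp1 and the brighter Klf6 probe moved the same way by less. Dusp1 was higher on the third array by 0.97 in shAtad2 and 0.68 in shCtrl, or 1.77-fold over both groups. Klf6 was higher by 0.60 in shAtad2 and 0.59 in shCtrl, or 1.51-fold. For Ier3, Dusp1 and Klf6, 3 of the 7 genes, both replicate 3 arrays lay above all 4 other arrays, where 16.8% of all genes tested did so, and for 0 of the 7 both lay below, where 16.5% did. Only 2 genes were in this state when the probes of a gene were averaged, since the dimmer Klf6 probe differed by 0.36 in shAtad2 and -0.15 in shCtrl. Ier2 joined them among the genes not tested, with a mean on the third replicates that was at least 1.39-fold that of the first and second, on which it was not above background.

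For the AP-1 subunits and Egr1, the third replicates did not lie together above or together below the other arrays. Junb was 0.12 higher on the third array in shAtad2 and 0.66 higher in shCtrl. Jun differed by -0.03 in shAtad2 and 0.56 in shCtrl, and the sign in shAtad2 turned to 0.14 without the second replicate. Fos was lower on the third array in shAtad2, at -0.61, and near level in shCtrl, at -0.02, where it became 0.09 without the second replicate. Egr1 was 0.19 higher in shAtad2 and lower, at -0.15, in shCtrl. The median over the 7 genes was 0.19 in shAtad2 and 0.59 in shCtrl, beside 0.00 in shAtad2 and -0.01 in shCtrl over all genes, and the median size without sign was 0.60 in shAtad2 and 0.59 in shCtrl, beside 0.24 and 0.26 over all genes.

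**Figure D3:**
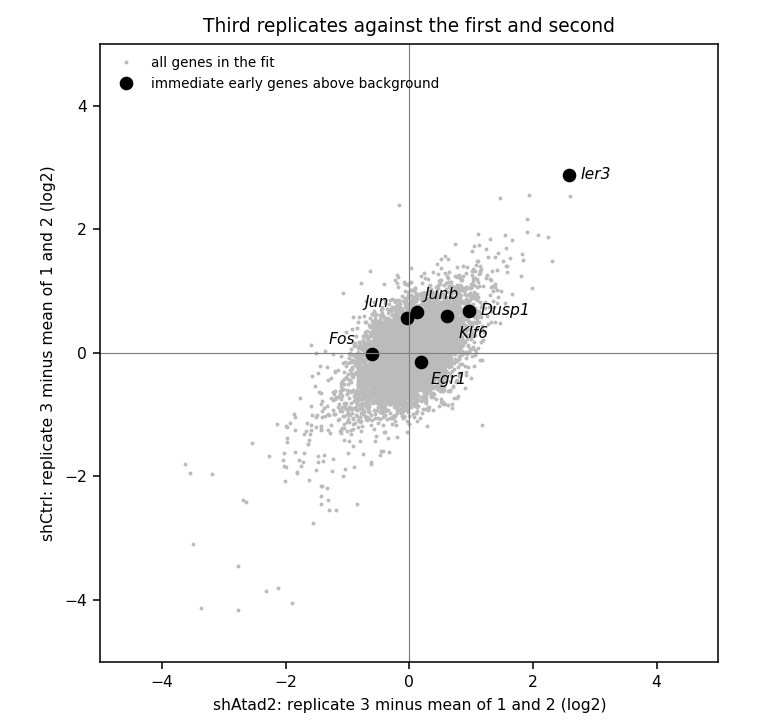
Replicate 3 minus the mean of the first and second on the log2 scale, in shAtad2 (horizontal axis) and in shCtrl (vertical axis), for all 10072 genes tested (grey) and the 7 immediate early genes kept in the fit (black). Ier3 sits at 2.58 and 2.88 at the edge of all genes, Dusp1 and Klf6 between 0.59 and 0.97, and Fos, Jun, Junb and Egr1 within the bulk.

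Lineage markers were also far from the other arrays on the third replicates. Of the 5 trophectoderm markers, 4 were tested and 3 (Cdx2, Gata3 and Tfap2c) lay below all other arrays on both replicate 3 arrays. Krt7 did not, at -0.10 in shAtad2 and 0.49 in shCtrl against the first and second. The summed intensity of the tested markers was 233 to 543 on the third replicates and 1656 to 2539 on the first and second. Of the 5 streak and mesoderm markers, 4 were tested and Mixl1, Mesp1 and Eomes also lay below the other arrays on both. Tbx6 did not, at -0.54 in shAtad2 and 0.52 in shCtrl. The sums of this list were 322 to 506 on the third replicates and 954 to 1866 on the first and second. Gata3 and Mesp1 were above background on 0 of the third replicates and Mixl1 on 1, so these sums hold dim values. The endoderm marker Gata6, the only one tested of 6, read 4.64 on the third shAtad2 array, where it was not above background, against 7.25 and 7.42 on the first and second, and 5.83 on the third shCtrl array, against 8.46 and 7.96, whereas Sox17, Afp and Cubn were above background on 0 arrays. The pluripotency markers summed to 19891 to 20911 on the third replicates and 20573 to 24886 on the first and second, with Utf1 above and Sall4, Pou5f1 and Zfp42 below on both. The 8 fibroblast markers were checked because ES lines can be grown on feeder cells. The methods name feeders for the tagging of Atad2, and gelatin-coated dishes for the culture of the cells. Only Dcn and Thy1 were tested, with sums of 658 to 772 on the third replicates and 304 to 399 on the first and second. These sums were mostly the signal of Thy1. Both replicate 3 arrays lay above the other arrays for Thy1, and not for Dcn. The collagens Col1a1, Col1a2 and Col3a1 were above background on 0 arrays. In RNA from a whole culture, fewer cells of a type and less RNA per cell cannot be told apart, and the part of cell composition in the values of the members on the third replicates was not tested.

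Between the groups the markers gave a summed intensity of 19891 to 21351 in shAtad2 and 20911 to 24886 in shCtrl for pluripotent cells. The sums were 233 to 1836 in shAtad2 and 543 to 2539 in shCtrl for trophectoderm, and 322 to 974 in shAtad2 and 506 to 1866 in shCtrl for streak and mesoderm. With the replicate number as a block, limma called Cdx2 at -1.19 (SE 0.14, adjusted p = 0.048) and Mixl1 at -1.50 (SE 0.18, adjusted p = 0.048), both lower in shAtad2 in every pair, and without the block it called neither. Gata6 differed by -0.98 between the groups and the fibroblast marker Dcn by 0.78. Their adjusted p in limma was 0.093 and 0.106 with the block, and 0.883 and 0.501 without it. They were above background on 5 and 4 of the 6 arrays. The neurectoderm marker Nes, the only one tested of 4, was 288 to 321 in shAtad2 and 193 to 211 in shCtrl, without overlap. Its difference of 0.60 (SE 0.13) was not called (limma, adjusted p = 0.329 without the block and 0.118 with it). Whether these shifts take part in the group differences of Klf6, Dusp1 and Junb was not tested.

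The 6 lists of related genes, compiled from general knowledge, held 115 genes, of which 83 were tested and 0 were called by limma in either direction, with or without the block, while 6 (7.23%) had an unadjusted p under 0.05, 2 higher and 4 lower, beside 7.92% of all genes tested. Both replicate 3 arrays lay above the other arrays for 14 of the 83 (16.9%, beside 16.8% of all genes) and below for 16 (19.3%, beside 16.5%), so these shares were near those of all genes.

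Among 21 other early response transcription factors, 14 were tested, with 6 higher and 8 lower in shAtad2 and a median of -0.05. The smallest p was that of Nfkbiz, an atypical IκB protein, at -0.37 (SE 0.14, limma adjusted p = 0.569). On the third replicates Bhlhe40, a basic helix-loop-helix repressor of the circadian clock, was the nearest to Ier3, at 1.93 in shAtad2 and 2.56 in shCtrl. It was 1 of 5 that lay above on both, with Fosl2, Jund, Myc and Maff, of which Fosl2, Myc and Maff were above background on only 3 arrays. These were both replicate 3 arrays and 1 other, so the 3 genes passed the filter through the arrays where they were high. They also count among the genes of the 6 lists that lay above. The 5 that lay below included Klf4 at -1.43 in shAtad2 and -1.23 in shCtrl and Klf2 at -1.42 in shAtad2 and -0.78 in shCtrl, both of them members of the self-renewal network, and also Egr2, Egr3 and Srf. Klf2 and Klf4 had the opposite sign to the brighter probe of their relative Klf6 in both groups. The dimmer Klf6 probe, at 0.36 in shAtad2 and -0.15 in shCtrl, had the opposite sign to them in shAtad2 only. Egr2 and Egr3, relatives of Egr1, were above background on 4 and 3 arrays, 0 of them a replicate 3, so their differences there are only bounded.

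Among 27 other early response genes, 21 were tested, with 10 higher and 11 lower in shAtad2 and a median of -0.04. Ccn2, a secreted target of YAP and serum signalling, had the smallest p, with 10.54, 10.66 and 10.71 in shAtad2 and 10.96, 11.04 and 11.09 in shCtrl. The groups did not overlap, and the difference was -0.39 (SE 0.13, limma adjusted p = 0.500). Both replicate 3 arrays were above for Zfp36, Per1, Arc and Mcl1, and below for Plk2, Gadd45g, Phlda1 and Errfi1. Zfp36, which destabilizes AU-rich early transcripts, was at 1.25 in shAtad2 and 0.60 in shCtrl, whereas the kinase gene Plk2 was at -2.05 in shAtad2 and -1.73 in shCtrl. Gadd45b, a stress gene, was high on the third array of shCtrl alone, at 2.40, against -0.17 in shAtad2.

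**Figure D4:**
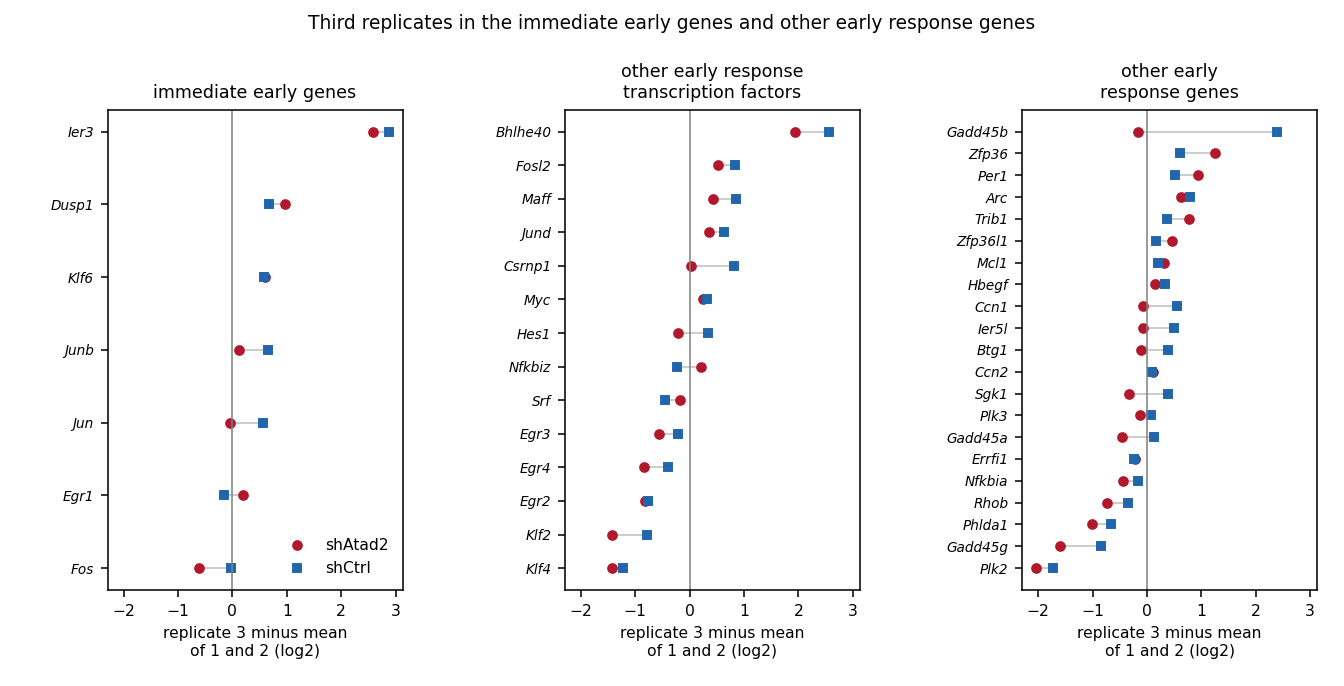
Replicate 3 minus the mean of the first and second on the log2 scale (horizontal axes) in shAtad2 (red circles) and shCtrl (blue squares), for the 7 immediate early genes and 2 lists of other early response genes. Ier3 and Bhlhe40 lie far to the right in both groups, Plk2 and Klf4 far to the left, and Gadd45b is split between the groups.

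The genes that restrain or carry the signal had list medians near 0. Of 15 genes for MAP kinase phosphatases and ERK feedback, 12 were tested, with 7 higher and 5 lower in shAtad2 and a median of 0.05, led by Spred1, an inhibitor of Ras to ERK signalling, at 0.45 (SE 0.15, limma adjusted p = 0.523). Among the relatives of Dusp1, which was at -0.30, Dusp4, Dusp6, Dusp2 and Dusp16 were at -0.22, -0.09, -0.06 and -0.03, and Dusp5, Dusp14, Dusp7 and Dusp10 at 0.22, 0.16, 0.07 and 0.02. Of 23 genes that signal to early promoters, 13 were tested (7 higher, 6 lower, median 0.06), led by the ERK kinase gene Map2k1 at -0.70 (SE 0.23, limma adjusted p = 0.499). Of 18 cytoskeletal targets of serum response factor, 14 were tested (10 higher, 4 lower, median 0.09), led by Fhl2 at 0.47 (SE 0.31, limma adjusted p = 0.793). Of 11 heat shock genes, 9 were tested (4 higher, 5 lower, median -0.10), led by the co-chaperone gene Bag3 at -0.26 (SE 0.18, limma adjusted p = 0.814), and both replicate 3 arrays were above the others for 0 of the 9 and below for 2.

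Across the 6 arrays, the members did not share a single profile. Pearson correlation of each with the mean of the other 6 was 0.91 for Dusp1, 0.88 for Ier3, 0.83 for Klf6, 0.81 for Junb and 0.65 for Jun, but -0.23 for Egr1 and -0.61 for Fos. The 6 arrays behind these values include the third replicates that stood apart, so the correlations largely restate that split. The genes outside the list with the profile most like the mean of the members were Ybx2 (0.993), Hook2 (0.993), Grb7 (0.990), Ppp1r3c (0.990) and Fuom (0.989). Genes were not scaled in any of these means, so Ier3 weighed the most wherever it was included. Its SD was 1.51 in shAtad2 and 1.68 in shCtrl, and the largest SD among the other 6 was 0.56, for Dusp1 in shAtad2. Likeness to the members apart from Ier3 was not tested. Hook2 is the direct neighbour of Junb on chromosome 8, with 0 genes between them in the RefSeq annotation. It measured 7.89, 7.95 and 8.37 in shAtad2 and 7.86, 8.13 and 8.66 in shCtrl, where Junb also had its highest value on the third array of each group. For Hook2 both replicate 3 arrays lay above the other arrays, where 16.8% of all genes tested did so. The likeness of Hook2 to Junb alone was not tested.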

How the data were processed

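Mouse ES cells carrying shAtad2 or shCtrl were profiled on 6 arrays (3 per group, day 3 without LIF). For 45281 probes, the authors deposited the unnormalized intensity and its detection p-value. Their second table, processed intensity with 1 shared distribution (median 141.1), served as an alternative. The scanner software and the background treatment are not given in the sources used here.

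Intensity was background-corrected, offset by 16, quantile-normalized and log2-transformed by the neqc function (limma 3.58.1, R 4.3.3). Probes with a detection p-value under 0.05 on at least 3 arrays were kept (18085), and the brightest stood for each gene, giving 10072 genes. Of all probes, 34885 carried 1 symbol, 18 several and 10378 none. Symbols were updated by Entrez identifier for 34807. The offset understates changes of dim probes, and the number of arrays limits the precision. The 4 promoter sequences come from RefSeq (GRCm38.p6).

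Groups were compared by two-sided moderated tests in limma at a Benjamini-Hochberg adjusted p under 0.05, without a block because the methods name no test, and with the replicate number as a block as an alternative. Where an array was not above background, a bound used the higher of the lowest signal called above background on that array and the value measured. In simulated data with 200 of 10072 genes changed, the fit without a block recovered 60.2% of 2-fold and 92.2% of 4-fold changes, and 4.49% of its calls were false. These shares hold for the simulated setting only. In the measured data 25 genes differed at least 2-fold between the groups and 0 were called. The members, the gene lists and the alternatives were chosen with earlier results of these data known. Named genes were all members, Atad2, the gene with the smallest p of each list without a call, and the 5 closest profiles without Riken clones and predicted loci. Any other gene was picked with its values in view.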

Additional observations from a re-analysis of the deposited data

Results flagged for a closer look

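Egr1 moved in opposite directions on the third replicates of the groups, at 0.19 in shAtad2 and -0.15 in shCtrl against the first and second replicates on the log2 scale. In shAtad2 the third array (10.16) was above both others (9.97 and 9.98), and in shCtrl the third array (9.79) was below both (9.91 and 9.97). The difference between the groups was not tested, and 18.7% of all genes tested (1883 of 10072) were split between the groups in this way in one direction or the other.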

How the results depend on the processing

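Calls numbered 0 under every alternative among the members and among the 83 genes tested from the lists of related genes. Among 16 alternatives, the genes called over the whole array numbered 1 lower without background correction, with an offset of 50, with the authors' processed values and with a trended and robust variance, and 3 lower without both replicate 3 arrays, against 0 without these changes. Treating replicate numbers as a block gave 8 lower and 2 higher. The median difference of the members ran between -0.48 and -0.057 when single arrays were left out, with -0.057 without shCtrl replicate 3. The cause was not tested. With no filter on dim probes, both replicate 3 arrays were above the other arrays for 5 of 10 members, since the filter leaves out the dim Ier2 and Ier5. The group differences of Fos, Jun, Junb, Egr1, Dusp1 and Klf6 kept their sign in the 14 alternatives that can move them, at 0.15 to 0.51, -0.48 to -0.05, -0.50 to -0.14, 0.03 to 0.19, -0.62 to -0.07 and -0.70 to -0.31. Ier3 ran between -1.15 and 0.67. Its difference on the third replicates stayed between 1.83 and 2.83 in shAtad2 and between 2.17 and 3.08 in shCtrl, the lowest without background correction. The slide as a block was not run, since the files used here do not give the chip. Dim probes (Ier2, Ier5 and Fosb) allow only bounds.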
